A study of Homo sapiens with 30 samples.

Results

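Receptor tyrosine kinases were followed at the RNA level in H1299 cells, a lung carcinoma line that lacks p53, after transfection with vectors that express wild type or mutant p53 or carry a DNA lesion. The 50 genes described are the receptor genes named for this purpose, Eph receptors included, whose Ensembl identifiers were found among the 39359 genes of the count table. All 50 were found, and 40 of them had enough reads to be tested. They fall into 14 families, of which the EPHA receptors (6 genes), the EPHB receptors (5) and the PDGF receptor family (5) are the largest.

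The 30 libraries form 10 groups of 3 replicates, which the series describes as biological triplicates. The control vector, pGFP, encodes only GFP, and the other vectors encode in addition wild type p53, RW mutant p53 (arginine replaced by tryptophan in the DNA-binding domain) or p53 O6-meG, a wild type sequence with an O6-methylguanine on the template strand of that codon. In p53 TM the O6-meG vector was combined with 10 µM O6-bzG, an inhibitor of the repair protein AGT, given 1 h before transfection, and RNA was taken 6 h or 24 h after transfection in every group. No other group is labelled as having received O6-bzG or its solvent. Expression was transient and came from tetracycline-response promoters, with GFP under its own, and all libraries were made from cells sorted for GFP. Any difference of p53 TM from p53 O6-meG is therefore a difference with O6-bzG and its solvent, and in bulk RNA fewer expressing cells and less RNA per cell cannot be told apart.

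Receptor tyrosine kinases are single-pass membrane proteins that bind a growth factor or a ligand on a neighbouring cell, pair with another receptor and phosphorylate tyrosines on each other. The phosphotyrosines recruit adaptors such as GRB2 and PI3-kinase, which pass the signal to the RAS and AKT pathways. In lung carcinoma, EGFR, MET, RET, ALK and ROS1 are well known as oncogenic drivers, and AXL and EPHA2 as receptors that are often abundant.

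Reads counted on genes lay between 32302699 and 71950532 per library (median 44424643). CDKN1A, a p53 target, was at 44.8 to 50.3 CPM (counts scaled to library size, after TMM normalization) in pGFP at 24 h, at 44.9 to 50.5 CPM with RW mutant p53 and at 513 to 791 CPM with wild type p53. For replicate 2 of the O6-meG group and replicate 2 of the TM group at 6 h, the titles name a different group in their first part than in parentheses. The column names of the deposited counts match the first part. These 2 libraries were placed by the parentheses and the genotype field, and each result for these groups at 6 h is also given with the other grouping and without both libraries. The keratin KRT8 and vimentin were abundant (24 h pGFP libraries: KRT8 122 to 142 CPM, VIM 1941 to 2714 CPM), whereas the epithelial markers CDH1 and EPCAM stayed under 1 CPM. Of the 8 epithelial and mesenchymal markers, 3 were under 1 CPM in every library. Of the measured markers of lung epithelium (5), leukocytes (5), endothelium (5) and fibroblasts (6), 4 genes of each list were under 1 CPM in every library.

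Per kb of exon, AXL was the most abundant receptor in pGFP cells at 24 h. AXL binds GAS6. Its level was 146 ± 21.2 CPM per kb (SD, n = 3), or 50.5% of the sum over the 50 genes. EPHA2, a receptor for ephrin-A ligands, followed with 39.3 ± 7.04, MET, the receptor for hepatocyte growth factor, with 18.2 ± 1.99, EPHB4, a receptor for ephrin-B2, with 14.3 ± 1.74, MERTK with 13.1 ± 0.707 and RYK, a Wnt-binding pseudokinase, with 12.1 ± 0.4 CPM per kb. All 3 AXL libraries lay above all EPHA2 libraries and these above all MET libraries, but MET and EPHB4, EPHB4 and MERTK, and MERTK and RYK overlapped. EGFR, the EGF receptor, was ninth with 4.44 ± 0.334 CPM per kb and did not separate from FGFR1 and FGFR4 on either side. The length joins the exons of all annotated isoforms, so this order depends on the annotation. By CPM without the length, RYK (mean 99 CPM) and EGFR (70.9 CPM) were above MERTK (54.2 CPM). In all, 19 of the 50 genes reached 1 CPM per kb and 23 stayed under 0.1 CPM per kb.

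The 10 genes that were not tested were CSF1R, EPHA1, FLT1, KIT, INSRR, MUSK, NTRK3, ROS1, EPHB1 and ALK. Over all 30 libraries together ALK had 8 reads, KIT 10 and ROS1 24, with 22, 23 and 15 libraries at 0. EPHB1 had the most reads of the group, 99 in all.

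**Figure D1:**
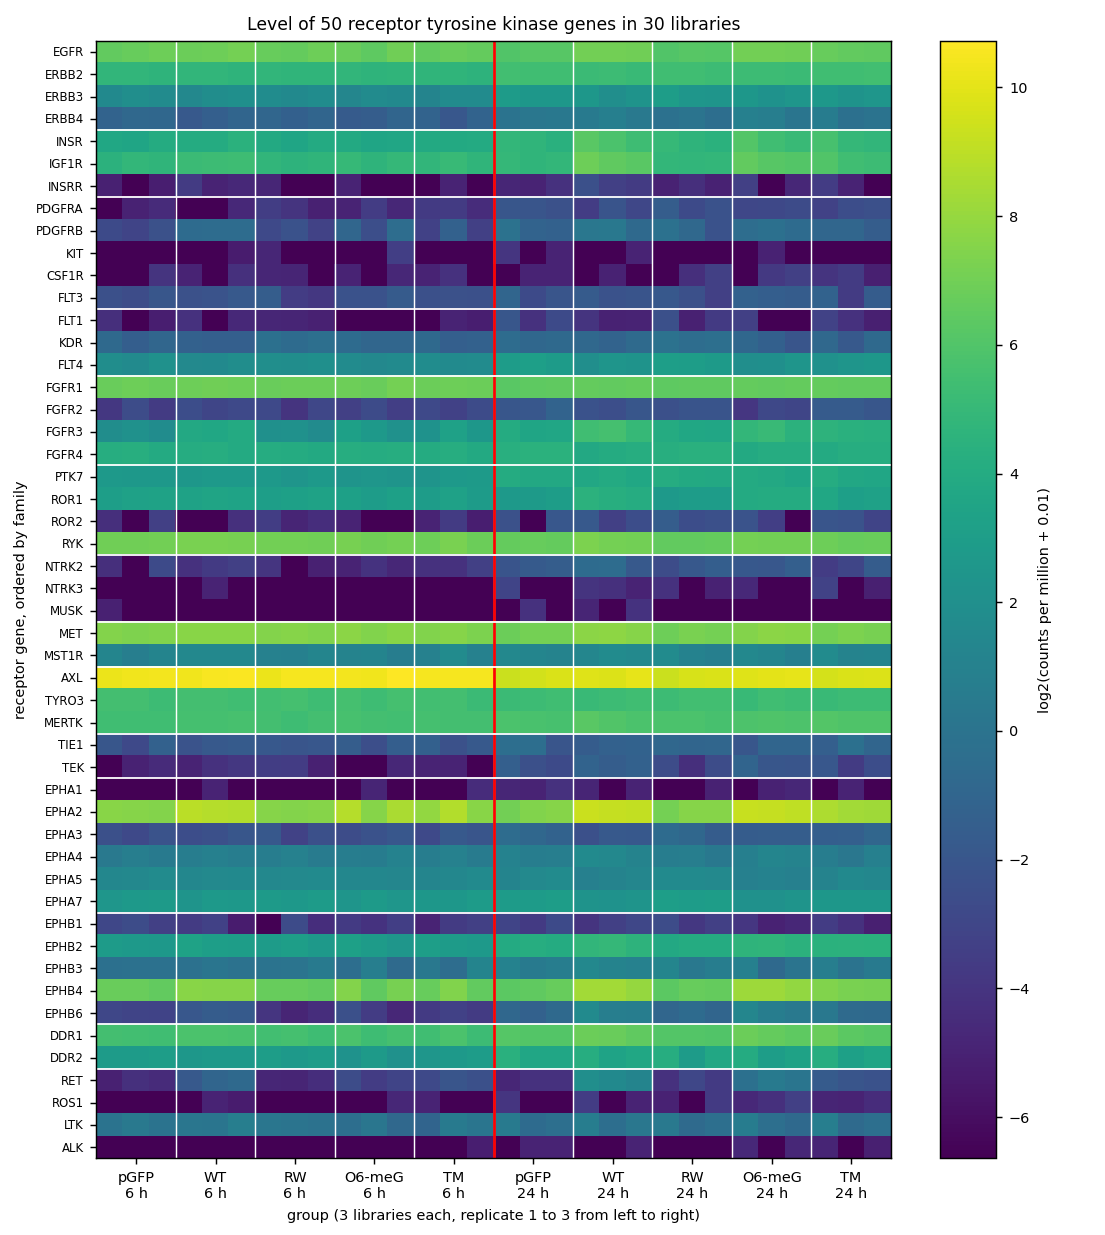
Heat map of log2(CPM + 0.01) for the 50 receptor genes (rows, ordered by family) in the 30 libraries (columns, 3 per group; the red line separates 6 h from 24 h). AXL is the brightest row throughout, and rows such as ALK and KIT are dark in every group; EPHA2, EPHB4 and IGF1R are brighter in the wild type p53 and p53 O6-meG columns at 24 h.

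With wild type p53, 8 of the 40 receptor genes rose at 6 h against pGFP and none fell (edgeR's quasi-likelihood test, Benjamini-Hochberg adjusted P under 0.05). Over all 20875 genes tested, 8.75% passed in either direction, 7.64% higher and 1.11% lower. Of the 8 receptors, 4 were DEGs, that is, also changed at least 2-fold, against 4.11% of all genes, and these were RET, PDGFRB, FGFR3 and EPHA2. The median log2 fold change was 0.19 over the 40 receptors and 0.019 over all genes.

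RET (ENSG00000165731.18, chromosome 10), the receptor of the GDNF family ligands, was nearly silent in pGFP cells at 6 h, with 0.0202, 0.0436 and 0.0349 CPM. With wild type p53 it was at 0.28, 0.5 and 0.589 CPM. The groups did not overlap, and the pooled reads were 74 against 5, a ratio of 14.6 (95% exact counting interval 5.98 to 46.3, which covers counting error only). The fitted log2 fold change was 3.72 ± 0.44 (SE, adjusted P = 1.7e-05).

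FGFR3 (ENSG00000068078.17, chromosome 4), an FGF receptor, was at 3.64, 4.41 and 3.44 CPM in pGFP and at 14.3, 13.2 and 15.9 CPM with wild type p53 at 6 h. The log2 fold change was 1.92 ± 0.24 (SE, adjusted P = 4.2e-05). EPHA2 (ENSG00000142627.12, chromosome 1) was at 202, 192 and 179.7 CPM in pGFP and at 477, 441 and 430 CPM with wild type p53, a log2 fold change of 1.23 ± 0.22 (SE, adjusted P = 9.1e-04). In both receptors every wild type library lay above every pGFP library.

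PDGFRB (ENSG00000113721.13, chromosome 5), the PDGF receptor beta, was at 0.141, 0.109 and 0.192 CPM in pGFP and at 0.654, 0.704 and 0.707 CPM with wild type p53 at 6 h, which did not overlap (log2 fold change 2.18 ± 0.54, SE, adjusted P = 9.0e-03). It also stands on the fibroblast marker list, on which it was the only gene of 3 tested to pass at 6 h. At 24 h its libraries were at 0.933, 0.454 and 0.414 CPM in pGFP and at 1.2, 1.23 and 0.617 CPM with wild type p53, and the difference did not pass (log2 fold change 0.78 ± 0.45, adjusted P = 0.19).

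The other 4 receptors that rose at 6 h were EPHB4 (log2 fold change 0.94 ± 0.19, adjusted P = 1.7e-03), IGF1R, the receptor of insulin-like growth factor (0.53 ± 0.15, adjusted P = 0.029), EPHB2 (0.45 ± 0.14, adjusted P = 0.046) and RYK (0.26 ± 0.08, adjusted P = 0.041). IGF1R lost its call without pGFP replicate 1 (adjusted P = 0.16), pGFP replicate 3 (0.083), wild type replicate 2 (0.07) or wild type replicate 3 (0.11). RYK lost it without any 1 of the 6 libraries compared (adjusted P 0.065 to 0.13). EPHB2 lost it without any of those 6 (adjusted P 0.053 to 0.23) and without several libraries of other groups. EPHB2 and RYK also did not pass by DESeq2 (0.052 and 0.063), with DESeq2 size factors (0.082 and 0.083), without a filter on low counts (0.081 and 0.1) or with at least 10 counts in every library (0.06 and 0.068). The count was 5 without pGFP replicate 1 or 3 or without wild type replicate 2 or 3, 4 when 10 counts were asked of every library (28 receptors tested) and 13 (12 higher and 1 lower) in a fit of only these 2 groups. With the replicate number as a block, INSR, EPHB6, MERTK and DDR1 rose in addition (adjusted P 0.015 to 0.049).

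A total of 22 of the 40 receptor genes were changed by wild type p53 at 24 h, 17 higher and 5 lower. The share of all genes that passed was 34.9%, with 20.3% higher and 14.6% lower. DEGs numbered 9, namely RET, EPHB6, EPHA2, IGF1R, EPHB4, FGFR3, ROR1 and INSR, which rose, and EPHA3, which fell, against 11.1% DEGs among all genes. The median log2 fold change was 0.35 over the 40 receptors and 0.006 over all genes. The number changed was between 20 and 22 with each library left out in turn.

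**Figure D2:**
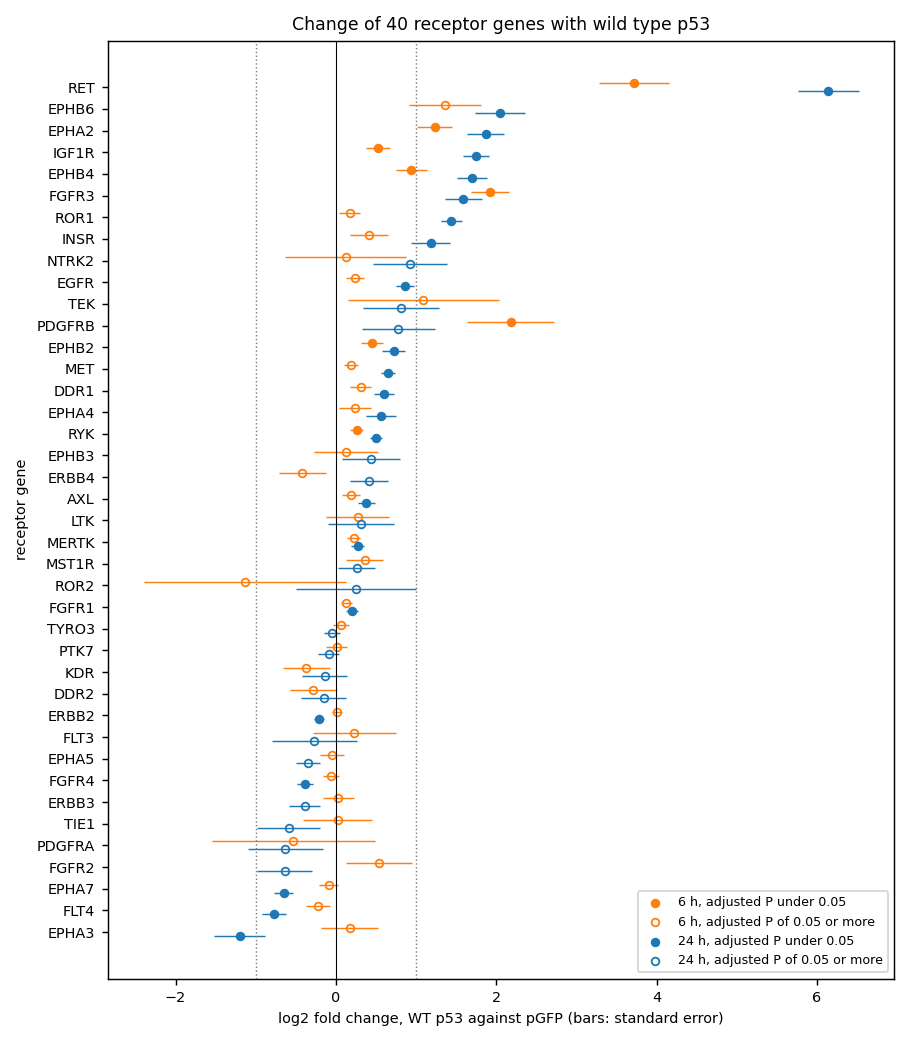
Log2 fold change of the 40 tested receptor genes with wild type p53 against pGFP at 6 h (orange) and 24 h (blue), with standard errors; filled points passed at an adjusted P under 0.05, and dotted lines mark a 2-fold change. RET lies farthest to the right at both times, at 3.72 and 6.14, and EPHA3 farthest to the left at 24 h, at -1.20.

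RET was at 0.0266, 0.0454 and 0.046 CPM in pGFP at 24 h, from 1, 2 and 2 reads, and at 3.74, 3.02 and 2.26 CPM with wild type p53. The pooled reads were 384 against 5, a ratio of 74.8 (95% exact counting interval 31.8 to 232). The fitted log2 fold change was 6.14 ± 0.38 (SE, adjusted P = 5.9e-11). Per kb of exon the highest RET library remained far below the lowest AXL library.

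Among the Eph receptors, which bind membrane-bound ephrins on neighbouring cells, EPHA2 was at 130.2, 172 and 186 CPM in pGFP and at 633, 601 and 553 CPM with wild type p53 at 24 h (log2 fold change 1.87 ± 0.23, adjusted P = 5.1e-07). EPHB4 (ENSG00000196411.9, chromosome 7) was at 80.9, 91.2 and 103 CPM against 320.4, 315 and 256 CPM (1.70 ± 0.19, adjusted P = 2.0e-07). EPHB6 (ENSG00000106123.11, chromosome 7), whose kinase domain is catalytically inactive, was at 0.56, 0.409 and 0.598 CPM against 3.18, 1.73 and 1.61 CPM (2.05 ± 0.31, adjusted P = 1.1e-05). None of these groups overlapped. With wild type p53, EPHA2 stood at 144 ± 9.78 CPM per kb (SD, n = 3) beside 190.1 ± 17.4 for AXL and was still below it in every library.

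Insulin receptor family members rose as well. IGF1R (ENSG00000140443.13, chromosome 15) was at 30.1, 26.3 and 28.6 CPM in pGFP and at 117, 90.6 and 78.1 CPM with wild type p53 (log2 fold change 1.75 ± 0.16, adjusted P = 1.2e-08). INSR (ENSG00000171105.13, chromosome 19), the insulin receptor, was at 29.5, 26 and 21 CPM against 79.3, 55 and 39.6 CPM (1.18 ± 0.24, adjusted P = 3.4e-04). All wild type libraries lay above all pGFP libraries in both genes, with the INSR libraries spread more widely.

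FGFR3 was at 16.1, 12.1 and 12.6 CPM in pGFP and at 41.4, 49.7 and 31.9 CPM with wild type p53 at 24 h (log2 fold change 1.59 ± 0.23, adjusted P = 4.7e-06). ROR1 (ENSG00000185483.11, chromosome 1), a Wnt5a-binding receptor with little kinase activity, was at 6.58, 7.2 and 8.07 CPM against 23, 18.9 and 17.2 CPM (1.44 ± 0.13, adjusted P = 1.9e-08). EPHA3 (ENSG00000044524.10, chromosome 3), the only DEG that fell, was at 0.693, 0.545 and 0.437 CPM against 0.175, 0.281 and 0.261 CPM (-1.20 ± 0.32, adjusted P = 4.4e-03). The groups did not overlap in any of the 3 genes. RET, EPHB6 and EPHA3 had too few reads to be tested when at least 10 counts were asked of every library.

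**Figure D3:**
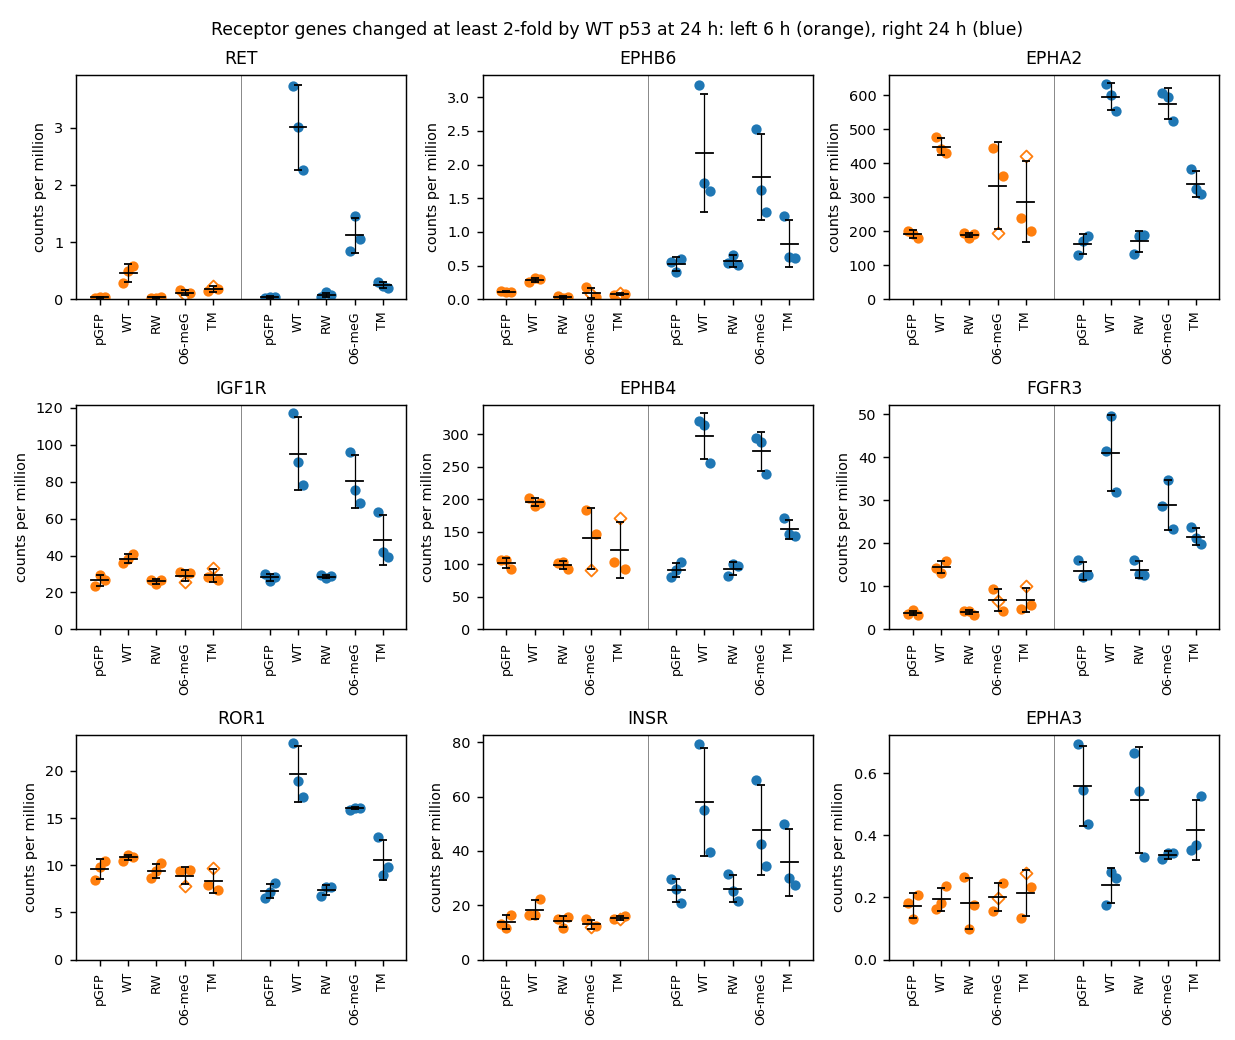
CPM of the 9 receptor genes changed at least 2-fold by wild type p53 at 24 h, 1 point per library, with the mean (line) and SD (bar) of each group of 3; orange is 6 h, blue 24 h. Open diamonds are the 2 libraries with conflicting titles; for EPHA2 the diamond of p53 O6-meG (194 CPM) lies near pGFP and that of p53 TM (422 CPM) near wild type p53.

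Smaller rises at 24 h were seen in EGFR, at 64.9, 72.6 and 75.1 CPM in pGFP and 131, 132 and 122 CPM with wild type p53 (log2 fold change 0.86 ± 0.11, adjusted P = 6.2e-07), and in MET, at 115, 139.9 and 139 CPM against 209, 215 and 193 CPM (0.65 ± 0.09, adjusted P = 4.0e-06). RYK was at 96.2, 103 and 98.1 CPM against 155, 135 and 130 CPM (0.50 ± 0.08, adjusted P = 1.7e-05). AXL was at 644, 737 and 861 CPM against 931, 918 and 1079 CPM (0.38 ± 0.11, adjusted P = 8.0e-03). In each of these 4 genes the groups did not overlap. The AXL call was lost without pGFP replicate 1 (adjusted P = 0.071) or wild type replicate 3 (0.056) and without a filter on low counts (0.069).

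EPHB2 (log2 fold change 0.72 ± 0.14, adjusted P = 1.3e-04) and DDR1, a collagen receptor (0.60 ± 0.13, adjusted P = 8.2e-04), also rose. EPHA4 was at 2.1, 1.64 and 1.73 CPM in pGFP and at 3.13, 2.76 and 2.14 CPM with wild type p53, which separated by little (0.56 ± 0.19, adjusted P = 0.025), and lost its call without pGFP replicate 2 or 3 or wild type replicate 1 or 2 (adjusted P 0.065 to 0.17). MERTK (0.27 ± 0.08) lost it without wild type replicate 1 (adjusted P = 0.31), and FGFR1 (0.20 ± 0.07) without pGFP replicate 1 (0.1), wild type replicate 1 (0.12) or wild type replicate 3 (0.064). EPHA4, MERTK and FGFR1 also did not pass without a filter on low counts (0.12 to 0.41) or in a fit of only these 2 groups (0.077 to 0.13).

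The receptors that fell beside EPHA3 changed by less than 2-fold. FLT4, a receptor of VEGF-C, fell by 0.77 ± 0.15 on the log2 scale (adjusted P = 1.7e-04), EPHA7 by 0.65 ± 0.12 (adjusted P = 1.3e-04), FGFR4 by 0.38 ± 0.10 (adjusted P = 3.0e-03) and ERBB2 by 0.21 ± 0.06 (adjusted P = 6.3e-03). ERBB2, the ligandless partner of the other ERBB receptors, was at 43.6, 42.2 and 42.5 CPM in pGFP and at 37, 38.5 and 35.3 CPM with wild type p53. Its fall did not pass in a fit of only these 2 groups (adjusted P = 0.071), and 5.53% of its exon bases are shared with MIEN1 on the opposite strand. With the replicate number as a block, which pairs the 24 h libraries, EPHA5 (-0.35 ± 0.12, adjusted P = 0.021) and ERBB3 (-0.40 ± 0.12, adjusted P = 0.01) passed too.

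Sequence around the starts of these genes was searched for the p53 response element, since p53 acts by binding paired decamers with an invariant C and G core. The window ran 2000 bases to each side of every RefSeq start (GRCh38.p14), on both strands, with at most 1 base between the decamers and the core kept intact. Of the 50 genes, 46 had a start in the table. A match with at most 2 mismatches occurred at 2 of their 77 starts (2.6%) and at 6.26% of all 35116 starts. The best match of each receptor that rose at least 2-fold at 24 h is printed with those of DDR1 and MET, the only members within 2 mismatches. Capitals are bases that fit the consensus, lower case marks mismatches, any spacer and 4 flanking bases on each side, and the strand is that of the gene.
DDR1, chr6:30890310-30890329, plus strand, intron: gctgGAACAAGCCaGGGCTcGTTCccac
MET, chr7:116672746-116672766, plus strand, intron: gacgAAACTAGaaTgGGGCTTGTCTtttt
RET, chr10:43078223-43078242, plus strand, intron: cctcAAACTgGCCCtGACTTGaTCccct
IGF1R, chr15:98649186-98649205, plus strand, UTR: gcgcGGcCAgGgCCGGGCTTGTTTttcc
EPHA2, chr1:16154895-16154914, minus strand, intron: tgtccAcCcAGCCCAGGCcAGCTTcaat
EPHB4, chr7:100827786-100827805, minus strand, upstream: ctggGccCcAGCCCcGACATGCTCggtc
EPHB6, chr7:142863582-142863602, plus strand, intron: ggcaGtGCTgGCTggAGGCTTGgCCactg
FGFR3, chr4:1792664-1792684, plus strand, upstream: caggcAGCcAGCCCcAGGCcTGTgTcctc
INSR, chr19:7294937-7294957, minus strand, upstream: caggGGcCTgGCTTgGGtCTcGCCCctgg
ROR1, chr1:63773720-63773740, plus strand, upstream: ctgtcGtCcAGCCacGAACTgGCTTgaga

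The DDR1 and MET matches lay 1631 and 560 bases downstream of the start. RET and IGF1R had 3 mismatches, a number reached by 27.83% of all starts, at 1163 and 656 bases downstream. The other 6 had 4 or more, and 67.07% of all starts had a match with at most 4. None of the 9 starts of the receptors that rose at least 2-fold at 24 h held a match within 2 mismatches. These are matches of letters near the start and were not measured as bound.

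The response to wild type p53 was compared between 24 h and 6 h. The difference of the 2 log2 fold changes passed for 4 receptors, all larger at 24 h, against 4.9% of all genes in either direction. The difference was 1.26 ± 0.19 for ROR1 (SE, adjusted P = 3.8e-04) and 1.22 ± 0.22 for IGF1R (adjusted P = 1.7e-03). It was 0.62 ± 0.15 for EGFR (adjusted P = 0.015) and 0.46 ± 0.13 for MET (adjusted P = 0.038). Mean EGFR at 6 h and 24 h was 124 and 128 CPM with wild type p53, and 106 and 70.9 CPM in pGFP. Mean MET was 199 and 205 CPM with wild type p53, and 174 and 131 CPM in pGFP. In these 2 genes the wild type level thus hardly differed between the times, and the pGFP level was lower at 24 h. At 6 h the ROR1 libraries were at 8.44, 9.8 and 10.5 CPM in pGFP and at 10.5, 11.1 and 10.9 CPM with wild type p53, close together. EGFR lost this call without pGFP replicate 1 at 24 h or pGFP replicate 3 at 6 h (adjusted P = 0.054 each). MET lost it without any of 9 of the 12 libraries compared (adjusted P 0.058 to 0.13) and without RW mutant p53 replicate 1 at 6 h. With the replicate block 9 receptors differed, 5 larger and 4 smaller at 24 h, the additional ones being INSR (0.73 ± 0.16), FGFR4, FLT4, EPHA7 and ERBB2.

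RW mutant p53 changed none of the 40 receptor genes at either time (edgeR and DESeq2 both gave 0). The share of all genes that passed was 0.00479% at each time. At an unadjusted P under 0.05 there were 2 receptors at 6 h and 0 at 24 h. RET had 0.0444, 0.121 and 0.0658 CPM in RW mutant p53 at 24 h, and EPHA2 134, 187 and 189 CPM, which overlapped the pGFP libraries. Against RW mutant p53 instead of pGFP, wild type p53 raised 18 and lowered 5 receptors at 24 h (all genes 35.3% passed), and raised 7 and lowered KDR at 6 h (8.28% of all genes passed). KDR, a VEGF receptor, was at 0.823, 0.675 and 0.786 CPM in RW mutant p53 and at 0.42, 0.364 and 0.368 CPM with wild type p53 at 6 h (log2 fold change -0.99 ± 0.28, adjusted P = 0.025), and lost its call without RW replicate 1 or 3 or wild type replicate 2 or 3 (adjusted P 0.083 to 0.11). The 6 h count against RW mutant p53 was 5 without RW replicate 3.

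At 24 h p53 O6-meG changed 21 receptors against pGFP, 15 higher and 6 lower, and 8 were DEGs (all genes 29.3% passed and 9.1% DEGs). The comparisons with pGFP share their control libraries, so each is given by its own values. RET was at 0.852, 1.45 and 1.06 CPM with p53 O6-meG, with pooled reads 134 against 5, a ratio of 28.9 (95% exact counting interval 12.1 to 90.6). EPHA2 was at 607, 596 and 524 CPM, EPHB4 at 294, 288 and 239 CPM, and IGF1R at 96, 75.7 and 68.7 CPM, all in the range of the wild type libraries or just under it.

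FGFR2, an FGF receptor, fell with p53 O6-meG by 1.60 ± 0.39 on the log2 scale (adjusted P = 2.3e-03), at 0.0587, 0.128 and 0.115 CPM against 0.24, 0.25 and 0.46 CPM in pGFP, and lost its call without pGFP replicate 3 (adjusted P = 0.06). With wild type p53 it was at 0.201, 0.173 and 0.237 CPM. INSR lost its call without p53 O6-meG replicate 1 (adjusted P = 0.073), EPHA5 without pGFP replicate 3 (0.072), and ERBB2 and FGFR1 without several single libraries (0.05 to 0.12). The replicate block called DDR2, MERTK and KDR in addition (adjusted P 0.017 to 0.048).

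Between p53 O6-meG and wild type p53 at 24 h no receptor passed (edgeR and DESeq2 both gave 0, and 5 receptors had an unadjusted P under 0.05), and 0.0% of all genes passed. RET came nearest, with p53 O6-meG lower in every library (log2 fold change -1.40 ± 0.24, adjusted P = 0.083). With the replicate block its difference passed (adjusted P = 3.9e-03), as it did under the other grouping (0.046), with both conflicting libraries left out (0.048), and without wild type replicate 3 at 24 h (0.042), wild type replicate 1 at 6 h (0.039) or p53 TM replicate 2 at 6 h (0.049).

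p53 TM changed 8 receptors against pGFP at 24 h, 6 higher and 2 lower, with 9.2% of all genes passing, and the DEGs were RET and EPHA2 (2.73% DEGs among all genes). RET was at 0.301, 0.231 and 0.2 CPM, from 33 pooled reads against 5, a ratio of 5.97 (95% exact counting interval 2.32 to 19.6), and its fitted log2 fold change was 2.51 ± 0.50 (adjusted P = 1.8e-03). EPHA2 was at 384, 324 and 309 CPM, above every pGFP and below every wild type library (1.06 ± 0.22 against pGFP, adjusted P = 2.9e-03). IGF1R (0.76 ± 0.15), EPHB4 (0.75 ± 0.19), ROR1 (0.54 ± 0.13) and EGFR (0.44 ± 0.11) rose as well, and FLT4 (-0.62 ± 0.15) and FGFR4 (-0.31 ± 0.10) fell.

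Of these calls in p53 TM, EGFR, ROR1, EPHB4 and FLT4 were lost without p53 TM replicate 1 (adjusted P 0.052 to 0.13), as was FGFR4 (0.27). EGFR, ROR1, EPHB4 and FGFR4 were lost without pGFP replicate 1 (0.056 to 0.077), FLT4 without pGFP replicate 2 (0.055), and FGFR4 without most single libraries. The count was 3 without p53 TM replicate 1 and 4 without pGFP replicate 1, with 1 DEG, RET, in either case, since EPHA2 kept its call at a log2 fold change of 0.96 and 0.92. With the replicate block it was 16, 13 higher and 3 lower, now including EPHB2 (0.41 ± 0.09, adjusted P = 2.1e-03), INSR (0.45 ± 0.11, adjusted P = 6.0e-03) and FGFR3 (0.67 ± 0.20, adjusted P = 0.021). The other grouping of the 6 h libraries, which enter the same fit, gave 13.

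**Figure D4:**
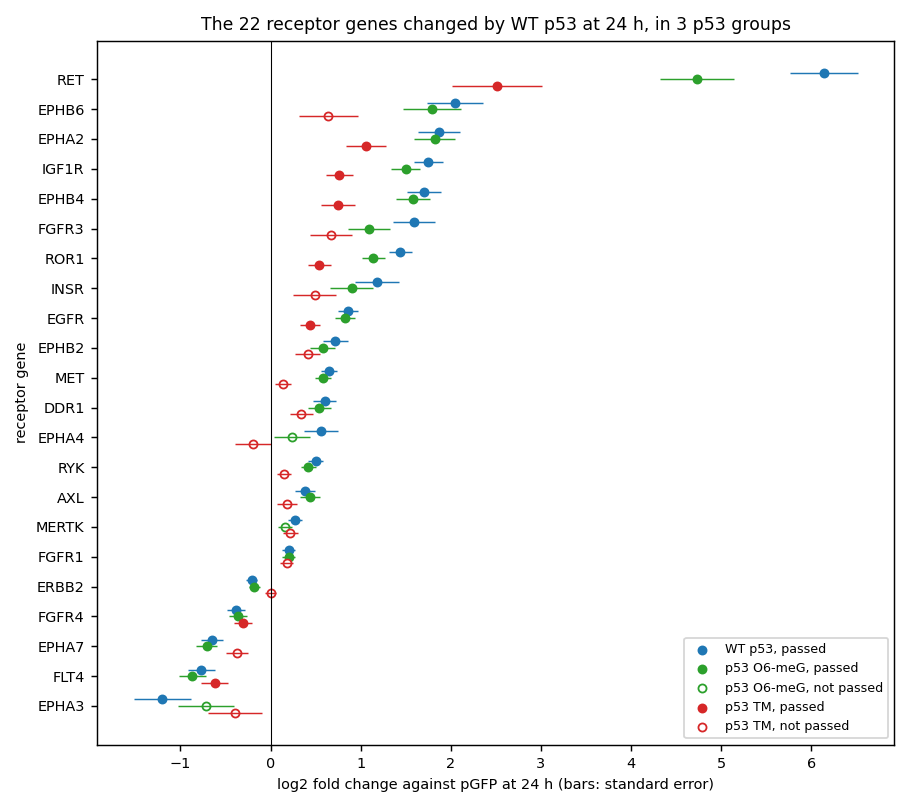
Log2 fold change against pGFP at 24 h of the 22 receptor genes changed by wild type p53, for wild type p53 (blue), p53 O6-meG (green) and p53 TM (red), with standard errors; filled points passed at an adjusted P under 0.05. The 3 comparisons share their pGFP libraries; for RET the values are 6.14, 4.73 and 2.51, and for EPHA2 1.87, 1.82 and 1.06.

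The direct comparison of p53 TM with wild type p53 at 24 h gave 13 receptors lower and 1 higher. It does not take pGFP as its reference, although the pGFP libraries enter the same fit. Of all genes, 18.5% passed, 10.0% lower and 8.46% higher. The median log2 difference was -0.19 over the 40 receptors and -0.009 over all genes. RET differed most, by -3.63 ± 0.28 (SE, adjusted P = 2.9e-08), followed by NTRK2 (-1.56 ± 0.49, adjusted P = 0.025) and EPHB6 (-1.41 ± 0.30, adjusted P = 1.7e-03). A list of 8 p53 target genes, CDKN1A among them, was kept as a check. In this comparison 0 of the 8 passed (median log2 difference -0.17), and all 8 were higher in p53 TM than in pGFP. CDKN1A differed by -0.78 ± 0.42 (adjusted P = 0.21), and it passed under the other grouping of the 6 h libraries (4.9e-04).

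EPHB6 was at 1.23, 0.624 and 0.617 CPM in p53 TM, below every wild type library. NTRK2, the BDNF receptor, was at 0.0753, 0.116 and 0.327 CPM in p53 TM, at 0.652, 0.691 and 0.285 CPM with wild type p53 and at 0.213, 0.295 and 0.345 CPM in pGFP. Its p53 TM and wild type libraries overlapped, and its call was lost without p53 TM replicate 1 or 2 or wild type replicate 1 or 2 (adjusted P 0.094 to 0.12). 

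IGF1R was at 63.8, 41.8 and 39 CPM in p53 TM (-0.99 ± 0.15 against wild type p53, adjusted P = 1.1e-04), EPHB4 at 171, 147 and 144 CPM (-0.95 ± 0.19, adjusted P = 1.0e-03) and ROR1 at 13, 9.02 and 9.77 CPM (-0.90 ± 0.13, adjusted P = 6.3e-05). FGFR3 was at 23.7, 21.2 and 19.8 CPM (-0.93 ± 0.22, adjusted P = 5.0e-03). For these 4 receptors p53 TM lay between pGFP and wild type p53 without overlapping either. EPHA2 differed by -0.81 ± 0.22 (adjusted P = 0.011), a call lost without p53 TM replicate 3 (adjusted P = 0.056).

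EPHA4 was at 1.63, 1.18 and 1.92 CPM in p53 TM (-0.75 ± 0.19, adjusted P = 7.5e-03) and lost its call without p53 TM replicate 2 (adjusted P = 0.065) or wild type replicate 1 (0.06). INSR was at 49.8, 30 and 27.5 CPM in p53 TM replicates 1 to 3 and at 79.3, 55 and 39.6 CPM with wild type p53. The groups overlapped, but p53 TM was lower within each replicate number (-0.70 ± 0.24, adjusted P = 0.042). In the fit without the replicate block, INSR lost its call without p53 TM replicate 2 or 3 or wild type replicate 1 or 2 (0.069 to 0.31). MET was at 137, 156 and 141 CPM (-0.50 ± 0.09, adjusted P = 4.7e-04), EGFR at 101, 96 and 90.6 CPM (-0.42 ± 0.11, adjusted P = 6.3e-03) and RYK at 119, 102 and 107 CPM (-0.36 ± 0.08, adjusted P = 2.7e-03). ERBB2, the receptor that was higher in p53 TM, was at 42.8, 41.4 and 43.8 CPM (0.21 ± 0.06, adjusted P = 0.015), and lost its call without p53 TM replicate 3 (0.069) or wild type replicate 3 (0.066).

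With the replicate block, 6 more receptors differed between p53 TM and wild type p53, namely EPHB2, EPHB3, PDGFRB, TEK and AXL, which were lower, and EPHA7, which was higher (adjusted P 7.9e-03 to 0.042). The share of all genes under the block is not given here, so the added calls are not read as particular to receptors. In a fit of only the 2 groups 8 receptors passed, all lower, while RYK, EPHB6, EPHA4, NTRK2, ERBB2 and INSR did not (adjusted P 0.053 to 0.16). For AXL the p53 TM libraries were at 771, 872 and 901 CPM.

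As a description of levels, from the same pGFP and wild type libraries for both groups, the rise above the pGFP mean was expressed as a share of that of wild type p53. Over the 17 receptors that rose, the median share was 30.3% in p53 TM (range -28.4% to 88.1%) and 78.1% in p53 O6-meG (36.5% to 116.0%). For MERTK the share was higher in p53 TM (81.4%) than in p53 O6-meG (55.7%). The 17 were chosen for their rise in the same wild type and pGFP libraries, which can pull the shares of other groups down. A share below that of wild type p53 is therefore not read as a deficit. Among the 8 that rose at least 2-fold, the p53 TM share ran from 6.9% for RET to 40.6% for EPHA2, and the p53 O6-meG share from 36.5% for RET to 95.3% for EPHA2. Over the same 8, the median was 44.5% in replicate 1 of p53 TM, 17.0% in replicate 2 and 17.9% in replicate 3. In p53 O6-meG it was 99.8%, 70.7% and 53.3%, so replicate 1 had the highest median in both groups. These shares use the means of pGFP and wild type p53 and take no account of the pairing of the 24 h libraries by replicate number.

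Against p53 O6-meG, p53 TM had 9 receptors lower and FGFR2 higher at 24 h (all genes 6.5% passed). RET again differed most, by -2.22 ± 0.30 (adjusted P = 5.4e-04), and was below every p53 O6-meG library. MET differed by -0.44 ± 0.09 (adjusted P = 6.3e-03), and RET and MET kept their calls with each library left out. EPHB6, EPHB4, EPHA2, IGF1R, ROR1, EGFR and RYK, which were lower, and FGFR2 each lost theirs without p53 TM replicate 2 or 3 (adjusted P 0.052 to 0.17). The count was 2 without p53 TM replicate 2 or 3, 5 without p53 O6-meG replicate 1 or 2, and 4 in a fit of only the 2 groups, where MET did not pass (adjusted P = 0.054). The replicate block added EPHA5, EPHA7 and ERBB2, which were higher, and AXL and INSR, which were lower (adjusted P 9.7e-03 to 0.03).

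At 6 h, as labelled in the parentheses of the titles, neither p53 O6-meG nor p53 TM changed any receptor against pGFP. The shares of all genes were 0.35% and 0.0814%, and 7 and 3 receptors had an unadjusted P under 0.05. DESeq2 called 2 receptors for p53 O6-meG and 0 for p53 TM. No share of all genes is given at an unadjusted P or by DESeq2, so these counts are not read as particular to receptors. Without p53 O6-meG replicate 2 the count for p53 O6-meG was 3, and without p53 TM replicate 2 it was 2. EPHA2 was at 446, 194 and 363 CPM in p53 O6-meG and at 238, 422 and 200 CPM in p53 TM. EPHB4 was at 184, 90.7 and 146 CPM and at 103, 171 and 92.8 CPM. In both genes replicate 2, the library with a conflicting title, lay with the other replicates of the other group. The other grouping is that of the column names of the counts, so the absence of calls as labelled depends on how these 2 libraries are placed.

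Under the other grouping 5 receptors rose with p53 O6-meG at 6 h (all genes 7.35% passed), namely EPHA2 (log2 fold change 1.10 ± 0.12, adjusted P = 2.3e-07), EPHB4 (0.72 ± 0.11, adjusted P = 2.1e-05), FGFR3 (1.06 ± 0.22, adjusted P = 2.1e-03), PDGFRB (1.87 ± 0.45, adjusted P = 7.9e-03) and RET (2.27 ± 0.56, adjusted P = 8.8e-03). Without both libraries, which leaves 2 replicates in each group, all but RET passed (4.85% of all genes). p53 TM changed no receptor against pGFP in either case (0.316% and 0.202% of all genes).

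Against wild type p53 at 6 h, no receptor passed for p53 TM as labelled, with 12 at an unadjusted P under 0.05, 4 called by DESeq2 and 0.0766% of all genes passing. The 12 and the 4 have no share of all genes beside them and are not read as particular to receptors. The other grouping gave 11 lower and 1 higher (14.6% of all genes), and leaving both libraries out gave 10 lower (10.9%). Leaving out only replicate 2 of p53 TM gave 10, only replicate 2 of p53 O6-meG 7, and p53 O6-meG replicate 1 or 3 at 6 h or p53 TM replicate 1 at 24 h 1 each. EPHB4 (-1.03 ± 0.11, adjusted P = 4.2e-08), EPHA2 (-1.09 ± 0.12, adjusted P = 1.7e-07), FGFR3 (-1.34 ± 0.21, adjusted P = 3.6e-05), PDGFRB (-2.57 ± 0.46, adjusted P = 1.8e-04) and RET (-1.79 ± 0.36, adjusted P = 6.3e-04) were among the 11 under the other grouping. For p53 O6-meG against wild type p53 no receptor passed under any of the 3 groupings, with 6 at an unadjusted P under 0.05 as labelled and 2 called by DESeq2. It was 1 without wild type replicate 1 and 2 without p53 O6-meG replicate 1 or p53 TM replicate 1 or 2. Between p53 TM and p53 O6-meG the counts were 0 as labelled (1 at an unadjusted P under 0.05, 0 by DESeq2, 0.0% of all genes), 8 under the other grouping (8.3%) and 3 without both libraries (4.1%), the 3 being EPHA2, EPHB4 and PDGFRB.

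Receptor RNA also differed between the times without wild type p53. In pGFP cells 21 receptors were higher and 6 lower at 24 h than at 6 h (all genes 40.1% passed, 18.4% higher and 21.8% lower), and 13 of the 21 were at least 2-fold higher (7.9% of all genes). Time after transfection and anything else that differed between the 2 harvests cannot be told apart. In RW mutant p53, whose libraries are separate from those of pGFP, 19 were higher and 6 lower (39.3% of all genes passed). The calls shared were 24, which is 88.9% of those in pGFP and 96.0% of those in RW mutant p53, and all 24 had the same direction. The overlap over all genes is not given here, so it is not read as particular to receptors. Libraries of the same number deviated together at 24 h, so the 2 vectors are not independent of each other.

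Markers of other cell types were higher at 24 h as well. In pGFP the test was passed by both endothelial markers tested, 2 of 3 fibroblast markers (a list that holds PDGFRB) and 2 of 3 leukocyte markers, all at least 2-fold higher, and by 1 of 2 lung epithelium markers. The summed endothelial markers were at 0.162 to 0.244 CPM at 6 h and 0.522 to 0.986 CPM at 24 h, the fibroblast markers at 0.873 to 1.01 and 2.55 to 3.2 CPM, and the leukocyte markers at 0.829 to 1.01 and 2.25 to 2.41 CPM. In RW mutant p53, 1 of 2 endothelial, 2 of 3 fibroblast, 2 of 3 leukocyte and 2 of 2 lung epithelium markers were higher. Their part in the receptor values was not tested.

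The 6 receptors that were lower at 24 h in both were AXL, EGFR, MET, FGFR1, ROR1 and RYK. AXL was at 1207, 1302 and 1370.2 CPM in pGFP at 6 h and at 644, 737 and 861 CPM at 24 h, which did not overlap (log2 fold change -0.79 ± 0.11, adjusted P = 3.9e-06), and in RW mutant p53 it differed by -0.80 ± 0.11. EGFR differed by -0.58 ± 0.11 in pGFP and -0.61 ± 0.11 in RW mutant p53, and MET by -0.41 ± 0.09 and -0.43 ± 0.09.  The ROR1 difference in pGFP (-0.40 ± 0.13) lost its call without pGFP replicate 1 at 24 h (adjusted P = 0.095), or pGFP replicate 2 (0.052) or 3 (0.09) at 6 h, and that in RW mutant p53 (-0.35 ± 0.13) without any replicate at 24 h or replicate 2 or 3 at 6 h (0.053 to 0.14).

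Among the receptors higher at 24 h were TEK, the angiopoietin receptor (log2 fold change 3.36 ± 0.73 in pGFP, adjusted P = 6.6e-04), PDGFRA (3.29 ± 0.64 in pGFP and 2.17 ± 0.56 in RW mutant p53), EPHB6 (2.20 ± 0.43 and 3.78 ± 0.53), NTRK2 (2.10 ± 0.61 and 3.31 ± 0.78) and FGFR3 (1.83 ± 0.24 and 1.80 ± 0.24). More abundant receptors that were higher at 24 h included EPHB2 (1.33 ± 0.14 and 1.09 ± 0.14), PTK7, a pseudokinase of Wnt signalling (1.26 ± 0.13 and 1.28 ± 0.13), and ERBB2 (0.68 ± 0.06 and 0.62 ± 0.06). TEK did not pass in RW mutant p53. TEK, PDGFRA, NTRK2 and EPHB6 had few reads at 6 h. Pooled over replicates, the counting ratio in pGFP was 11.4 for TEK (28 against 3 reads, 95% exact interval 3.52 to 58.6), 11 for PDGFRA (27 against 3 reads, 3.38 to 56.6) and 4.4 for NTRK2 (36 against 10 reads, 2.14 to 9.93). In RW mutant p53 it was 4.73 for PDGFRA (31 against 6 reads, 1.95 to 13.9), 11 for NTRK2 (36 against 3 reads, 3.47 to 55.8) and 14.7 for EPHB6 (80 against 5 reads, 6.03 to 46.4).

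**Figure D5:**
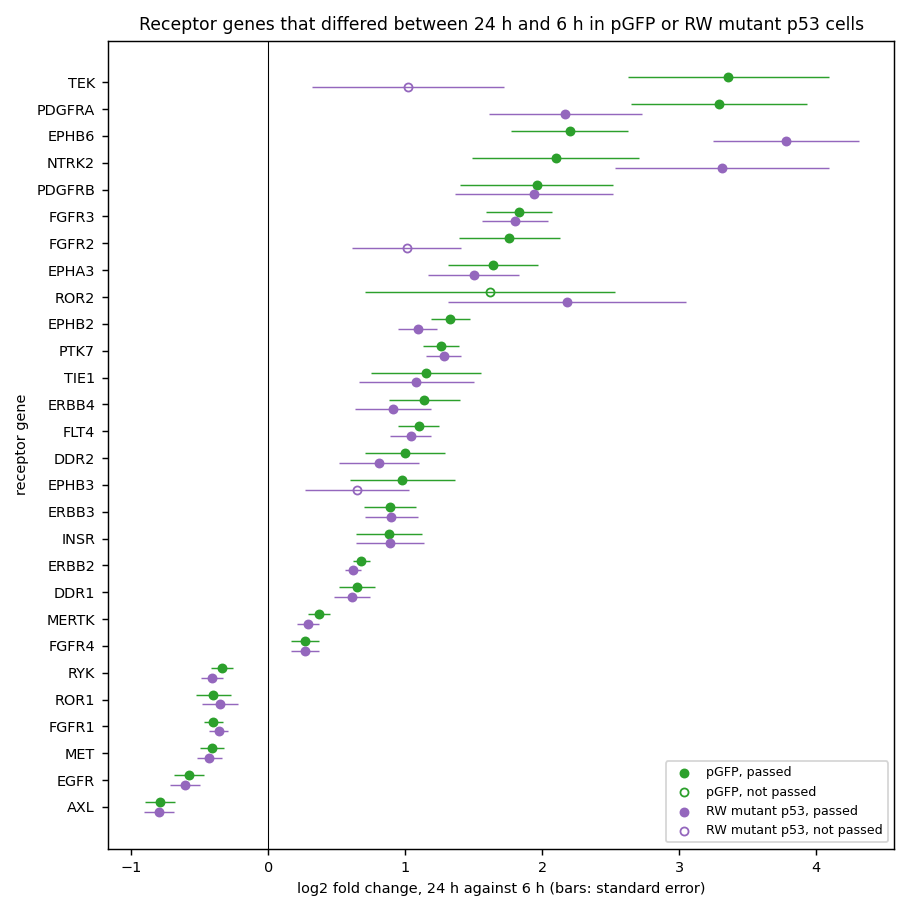
Log2 fold change between 24 h and 6 h of the receptor genes that passed in pGFP (green) or RW mutant p53 (purple), with standard errors; filled points passed at an adjusted P under 0.05. AXL, EGFR, MET, FGFR1, ROR1 and RYK lie left of 0 in both, with AXL at -0.79 and -0.80.

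The partners of the receptors were described by lists, whose counts with wild type p53 at 24 h stand beside 20.3% of all genes higher and 14.6% lower. Of 51 growth factor genes 41 were tested, and with wild type p53 at 24 h 15 rose and 4 fell (22 did not pass). ANGPT4, an angiopoietin that binds TEK, rose by 6.04 ± 0.71 on the log2 scale (adjusted P = 8.6e-07), CSF1, the ligand of CSF1R, by 3.00 ± 0.41 (adjusted P = 2.1e-06), whereas NRTN, a RET ligand of the GDNF family, fell by 1.27 ± 0.38 (adjusted P = 0.011) and PDGFA by 1.09 ± 0.29 (adjusted P = 4.4e-03). ANGPT4 had 5 pooled reads in pGFP and 362 with wild type p53, a ratio of 70.5 (95% exact counting interval 29.9 to 219). The NRTN call was lost without wild type replicate 1 (adjusted P = 0.053) or 3 (0.058). The list's median log2 fold change was 0.19, against 0.006 over all genes.

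All 8 ephrin genes were tested, of which 2 rose and 2 fell, beside 34.9% of all genes that passed. EFNB1 rose by 2.47 ± 0.22 (adjusted P = 1.2e-08) and EFNA1, a ligand of EPHA2, by 1.83 ± 0.38 (adjusted P = 4.4e-04). EFNB3 fell by 0.84 ± 0.20 (adjusted P = 1.6e-03) and EFNB2, the ligand of EPHB4, by 0.74 ± 0.20 (adjusted P = 5.2e-03). EFNB2 thus fell while EPHB4 rose, and EFNA1 and EPHA2 both rose.

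Of 37 adaptors and proximal effectors tested, 15 rose and 3 fell, again beside 20.3% higher and 14.6% lower among all genes. PIK3R1, a regulatory subunit of PI3-kinase, rose by 1.79 ± 0.24 (adjusted P = 1.4e-06) and the adaptor SH2B2 by 1.02 ± 0.19 (adjusted P = 9.0e-05), while SHC2 fell by 0.82 ± 0.19 (adjusted P = 9.7e-04) and DOK1 by 0.65 ± 0.15 (adjusted P = 8.7e-04). Of 23 tested genes that restrain or degrade receptors, 9 rose and none fell (14 did not pass). The receptor phosphatases PTPRJ (1.54 ± 0.14, adjusted P = 1.1e-08) and PTPRB (1.38 ± 0.27, adjusted P = 2.2e-04) rose most. With the replicate block 13 of these rose and 2 fell.

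In p53 TM against wild type p53 at 24 h, 12 growth factor genes were lower and 2 higher, 3 ephrins were lower, 7 adaptors and effectors lower and 3 higher, and 3 of the restraining genes lower and 2 higher. Of all genes, 10.0% were lower and 8.46% higher. ANGPT4 (-3.07 ± 0.51, adjusted P = 3.3e-04), EFNB1 (-0.86 ± 0.21, adjusted P = 5.6e-03), SH2B2 (-0.76 ± 0.18, adjusted P = 4.8e-03) and PTPRJ (-0.77 ± 0.13, adjusted P = 3.0e-04) were lower, and SHC2 (0.80 ± 0.19, adjusted P = 3.7e-03) was higher, although SHC2 did not pass in a fit of only these 2 groups (adjusted P = 0.062). CSF1, EFNA1 and PIK3R1, which were lower, and DOK1, which was higher, lost their calls without wild type replicate 1 or p53 TM replicate 2 or 3 (adjusted P 0.056 to 0.2), EFNA1 also without wild type replicate 2 (0.054), and DOK1 also in a fit of only these 2 groups (0.15). The number of ephrins, 3, was 1 without wild type replicate 1 or 2 or p53 TM replicate 3, and 5 without p53 O6-meG replicate 2 or 3 at 6 h. That of adaptors and effectors, 10, was 4 without wild type replicate 1 or p53 TM replicate 3 and 6 without p53 TM replicate 2. That of restraining genes, 5, was 2 without p53 TM replicate 2 or 3 and 3 without wild type replicate 2. RW mutant p53 changed no gene of the 4 lists at 24 h.

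Marker genes of other cell types also changed with wild type p53 at 24 h. VWF, on the endothelial list, was at 0.266, 0.25 and 0.207 CPM in pGFP and at 0.652, 0.993 and 0.688 CPM with wild type p53 at 24 h (log2 fold change 1.69 ± 0.34, adjusted P = 3.3e-04). The 5 endothelial genes summed to 0.522 to 0.986 CPM in pGFP, to 1.58 to 1.73 CPM with wild type p53 and to 0.301 to 0.879 CPM with p53 TM, with CDH5 at 0 in 2 libraries of pGFP and 2 of wild type p53. VWF was lower in p53 TM than with wild type p53 (-2.20 ± 0.36, adjusted P = 1.7e-04). COL1A1, on the fibroblast list, was lower (-1.53 ± 0.33, adjusted P = 6.6e-04), and the list's sum was 2.55 to 3.2 CPM in pGFP and 1.59 to 2.41 CPM with wild type p53. VIM and CDH2 of the epithelial and mesenchymal list were higher with wild type p53 by 0.33 and 0.27 on the log2 scale, calls that were lost without a filter on low counts (adjusted P = 0.19 and 0.21), and CDH2 was lower in p53 TM than with wild type p53 (-0.35 ± 0.08, adjusted P = 2.1e-03). No lung epithelium or leukocyte marker passed for wild type p53 against pGFP or p53 TM against wild type p53 at 24 h. The part of these genes in the receptor values was not tested.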

How the data were processed

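The authors sequenced stranded total RNA libraries as single reads, aligned them to hg38 with STAR 2.5.3a, counted reads on GENCODE v27 genes with featureCounts of Subread 1.5.2 and deposited raw counts per gene. Whether reads were counted by strand is not given in the sources used here, so exon bases shared with another gene leave a count uncertain. Their table of normalized values was not used. The 50 members and all gene lists were chosen with earlier results of these data known.

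Here the counts were fitted in R 4.3.3 with edgeR 4.0.16 (filterByExpr, TMM, all 10 groups together, quasi-likelihood test, Benjamini-Hochberg adjustment over the 20875 genes tested). A gene passed at an adjusted P under 0.05, and a DEG also changed at least 2-fold. Errors are standard errors (SE) of the log2 fold change, derived from the F statistic, or SD over 3 libraries. Levels per kb used GENCODE v44 exon lengths, by which 38904 of 39359 genes were matched. Values in every library are given for DEGs of wild type p53, for receptors that passed between p53 TM and wild type p53 at 24 h and for the 3 most abundant, and each list is represented by up to 2 rises and 2 falls. FGFR2, KDR and the marker genes were named after their values were seen.

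Alternatives were DESeq2 size factors, DESeq2 1.42.0, 2 other filters, only the groups compared, a replicate block, both treatments of the 2 doubtful titles, and leaving out single libraries. Libraries of the same number deviated together at 24 h (30 of 30 pairs with a correlation above 0.1, 0.427 to 0.884). At 6 h, without the 2 lesion groups, 8 of 9 such pairs were above 0.1 (median 0.472). Of pairs with different numbers, 2 of 18 were (median -0.24). With the lesion groups it was 23 of 30 and 10 of 60 pairs. No library duplicated another of its own group (30 pairs, chi-square per degree of freedom 5.51 to 41.9). Libraries of different groups were not compared in this way. On simulated counts of wild type p53 against pGFP at 24 h (20528 genes), 32 of 80 genes changed by 0.6, 55 of 80 changed by 1 and 39 of 40 changed by 2 on the log2 scale were recovered, with 8 false calls. Far fewer genes changed in the simulation than in the data, where 34.9% passed, and no replicate effect was simulated. These rates therefore do not carry over to the real comparison. The RNA level of 1 gene, a check of the labels, is not reported here.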

Additional observations from a re-analysis of the deposited data

Results flagged for a closer look

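The change with wild type p53 differed between 24 h and 6 h, by a test of the difference itself (edgeR, quasi-likelihood, Benjamini-Hochberg), in 4 receptors. The difference of log2 fold changes was 1.26 for ROR1 (adjusted P = 3.8e-04), 1.22 for IGF1R (adjusted P = 1.7e-03), 0.62 for EGFR (adjusted P = 0.015) and 0.46 for MET (adjusted P = 0.038). In EGFR and MET the mean with wild type p53 hardly differed between the times, and the pGFP mean was lower at 24 h. ROR1 and IGF1R kept their calls with each library left out, with adjusted P of at most 2.4e-03 and 7.6e-03 in any setting.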

How the results depend on the processing

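All alternatives gave no reversed direction among the 170 member values that passed, and 6128 of their alternative values kept the call while 285 lost it. At 6 h the count for wild type p53 against pGFP was 4 with at least 10 counts in every library (2 DEGs) and 13 with only the groups compared, and against RW mutant p53 4 with at least 10 counts. p53 O6-meG against pGFP gave 1 without a filter or with the replicate block, 2 by DESeq2, 5 under the other grouping and 4 without both conflicting libraries, and p53 TM gave 1 with the block. p53 TM against wild type p53 gave 3 without a filter, 8 with the block, 4 by DESeq2, 12 under the other grouping and 10 without both, p53 O6-meG against wild type p53 2, 4 and 2 for the first 3 of these, and p53 TM against p53 O6-meG 8 and 3 for the last 2. At 24 h the DEG count with at least 10 counts was 5 for p53 O6-meG, 1 for p53 TM (1 also with only the groups compared) and 7 for 24 h against 6 h in pGFP. p53 TM against pGFP gave 16 with the block and 13 under the other grouping, against wild type p53 8 and against p53 O6-meG 4 with only the groups compared. p53 O6-meG against wild type p53 gave 1 with the block, the other grouping or without both, and the difference between times 9, 7 and 7. Restraining genes numbered 15 with the block for wild type p53. For p53 TM against wild type p53 the block gave 6 ephrins, 17 adaptors and effectors and 9 restraining genes, only the groups compared gave 3 and 3 of the last 2, and 5 ephrins passed without both conflicting libraries. The causes were not tested. Except for the groupings at 6 h, no share of all genes is given for the alternatives or for an unadjusted P. Those counts are therefore not read as particular to receptors. Beside the counts listed, the replicate block, which pairs libraries of the same number within each time, moved no count by more than 1.5 times. At 6 h this pairing was seen among pGFP, wild type and RW mutant p53. It was weaker with the 2 lesion groups, which hold the libraries with conflicting titles.

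When single libraries were left out, counts ranged from 5 to 9 for wild type p53 against pGFP and against RW mutant p53 at 6 h, 0 to 3 for p53 O6-meG against pGFP, 0 to 10 for p53 TM and 0 to 2 for p53 O6-meG against wild type p53 at 6 h, 3 to 10 (DEGs 1 to 2) for p53 TM against pGFP, 0 to 1 for p53 O6-meG against wild type p53 and 2 to 11 for p53 TM against p53 O6-meG at 24 h, and 2 to 6 for the difference between times. The ranges for p53 TM against wild type p53 were 1 to 5 ephrins, 4 to 10 adaptors and effectors and 2 to 5 restraining genes. Counting error limits RET, EPHB6, EPHA3, PDGFRB and NTRK2, whose levels rest on few reads, and the 10 receptors not tested.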
